A study of Mus musculus with 12 samples.

Results

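The genes described here are 40 listed genes for secreted and absorptive-cell proteins of the intestine, airway, mammary and other glands and liver, read as tissue-restricted antigens in thymic epithelial cells. They are listed by symbol: milk proteins, Reg family lectins, antimicrobial proteins, trefoil factors and mucins, lipid-carrying proteins, airway and M cell proteins, and 2 further genes. Of the 40, 38 had a row among the 31332 rows of the count table and 35 passed the filter on low counts, among 17268 genes that did. The counts of Spt1 and Tff1 were not analysed here, and Lalba, Reg2 and Reg3d had too few counts for a test: summed over control mTEC, Cre mTEC, control cTEC and Cre cTEC, Lalba had 7, 7, 7 and 8 counts, Reg2 18, 12, 5 and 3, and Reg3d 7, 3, 2 and 4.

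Medullary thymic epithelial cells (mTEC) transcribe genes of many peripheral tissues and present their products to developing T cells, which removes self-reactive clones. The transcriptional regulators Aire and Fezf2 each drive part of that repertoire, and subsets of medullary cells resemble cells of other epithelia, such as M cells. Cortical cells (cTEC) support positive selection and are not known for this display. Liver X receptors are oxysterol-sensing nuclear receptors that control cholesterol efflux and lipid synthesis.

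All 12 libraries came from thymuses of C57BL6/J mice aged 2 months, and every mouse carried floxed alleles of the genes for LXR alpha (Nr1h3) and LXR beta (Nr1h2). Control libraries had these alleles alone (mTEC libraries 1 to 3 and cTEC libraries 7 to 9). Cre libraries also had a FoxN1-Cre transgene, active in thymic epithelium (mTEC libraries 4 to 6 and cTEC libraries 10 to 12). Whether the 3 libraries of a group are separate animals is not given in the labels, nor whether 1 animal gave both a cTEC and an mTEC library. Libraries were tested as independent, so p-values measure the spread between libraries.

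Total counts ran from 4804697 to 11159013, so that 1 count was worth between 0.0898 and 0.194 CPM, the unit of level used here, in which counts are scaled to the library total. Counts over a whole gene do not measure excision of a floxed segment. Nr1h2 fell by 0.63 on the log2 scale in Cre mTEC (SE 0.13, edgeR adjusted p = 0.0158) and by 0.58 in Cre cTEC (SE 0.13, adjusted p = 0.00566), while Nr1h3 was not called in either. The LXR target Abca1, a cholesterol exporter, fell by 1.88 in mTEC and by 2.07 in cTEC. The list of cTEC-defining genes summed to 8972 to 21149 CPM in cTEC and 1856 to 2658 in mTEC, and the mTEC-defining list to 6007 to 7382 in mTEC and 1307 to 2643 in cTEC. Neither list was absent from the other class.

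Promoters of the members that carry the results below are shown first. They hold a pair of near-identical genes that were both called lower in Cre mTEC and Cre cTEC (Chi3l3 and Chi3l4). They also hold genes of 1 family and cluster with very unlike counts (Reg3g and Reg3d). Sequences are from RefSeq (build GRCm38.p6), 250 bases before to 50 after the annotated start, all on the minus strand and written 5′ to 3′. Reg3g lies at chr6:78468825-78469124, Reg3d at chr6:78378816-78379115, Csn2 at chr5:87699376-87699675, Chi3l3 (now Chil3) at chr3:106167515-106167814 and Chi3l4 (now Chil4) at chr3:106219430-106219729. Capitals mark, on either strand, TATAAA, the nuclear receptor hexamer AGGTCA, or TTCNNNGAA, the pattern bound by STAT factors.
Reg3g: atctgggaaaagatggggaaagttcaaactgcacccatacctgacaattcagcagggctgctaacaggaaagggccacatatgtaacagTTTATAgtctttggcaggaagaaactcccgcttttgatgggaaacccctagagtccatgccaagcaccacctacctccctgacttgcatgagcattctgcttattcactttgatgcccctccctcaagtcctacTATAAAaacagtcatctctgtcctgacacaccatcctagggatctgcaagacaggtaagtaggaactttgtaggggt
Reg3d: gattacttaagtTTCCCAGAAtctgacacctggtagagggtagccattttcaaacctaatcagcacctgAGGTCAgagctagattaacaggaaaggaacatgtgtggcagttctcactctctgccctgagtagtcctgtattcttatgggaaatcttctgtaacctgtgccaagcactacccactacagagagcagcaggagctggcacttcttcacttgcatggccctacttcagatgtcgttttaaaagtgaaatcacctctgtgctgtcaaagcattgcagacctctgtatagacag
Csn2: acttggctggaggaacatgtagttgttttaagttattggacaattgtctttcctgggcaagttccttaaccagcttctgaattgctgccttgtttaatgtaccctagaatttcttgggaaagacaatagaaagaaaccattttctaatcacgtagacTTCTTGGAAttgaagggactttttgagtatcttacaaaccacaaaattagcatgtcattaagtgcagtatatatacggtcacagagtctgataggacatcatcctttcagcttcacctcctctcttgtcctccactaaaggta
Chi3l3: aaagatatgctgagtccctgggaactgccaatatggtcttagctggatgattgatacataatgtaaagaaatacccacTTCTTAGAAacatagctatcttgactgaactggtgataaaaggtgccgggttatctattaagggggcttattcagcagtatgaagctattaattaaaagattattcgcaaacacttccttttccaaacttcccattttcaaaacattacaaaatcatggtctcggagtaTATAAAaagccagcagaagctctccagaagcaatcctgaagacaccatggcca
Chi3l4: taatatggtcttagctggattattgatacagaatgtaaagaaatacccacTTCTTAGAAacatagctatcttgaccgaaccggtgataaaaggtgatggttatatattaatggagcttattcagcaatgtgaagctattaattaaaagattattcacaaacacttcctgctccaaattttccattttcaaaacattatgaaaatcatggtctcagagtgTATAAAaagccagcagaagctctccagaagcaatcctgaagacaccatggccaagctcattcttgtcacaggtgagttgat

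TATAAA stood 27 bases before the annotated start of Reg3g (and 161 before it on the other strand), 31 before that of Chi3l4 and 3 before that of Chi3l3, and not in the Reg3d or Csn2 window. TTCNNNGAA stood 93 bases before the start of Csn2, 172 before Chi3l3, 200 before Chi3l4 and 238 before Reg3d. The only AGGTCA in the 5 windows was in Reg3d, 181 bases before the start. The chitinase-like pair lie side by side on chromosome 3: 251 of 273 aligned promoter bases were identical (91.9%), as were 1141 of 1209 columns of their coding sequences (94.4%). Reads could therefore be split between Chi3l3 and Chi3l4 by the authors' counting, and their separate values are uncertain to that extent. The same holds for Lyz1, whose coding sequence was 95.1% identical to that of the macrophage lysozyme Lyz2.

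RefSeq held 36 promoters for 34 members, 31 matched by symbol and 3 by an older symbol. TATAAA occurred in 15 of them (41.7%, against 13.6% of all 32851 promoters of this length) and TTCNNNGAA in 10 (27.8% against 8.30%). Each casein promoter in the table (Csn2, Csn1s1 and Csn1s2a) held TTCNNNGAA. AGGTCA occurred in 8 (22.2% against 16.3%). A direct repeat of AGGTCA with 4 bases between its 2 copies, the classical LXR element, occurred in 0 of the 36 and in 5 of all promoters (0.0152%). Member promoters were poor in CpG, with a median of 3 per 300 bases and at most 6, against a median of 7 and a maximum of 67. These are letter matches over short windows and say nothing about binding.

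In control cells, 31 of the 35 tested members were higher in mTEC than in cTEC and 1 (Defb1) was lower. Across all genes tested, 29.3% were called higher and 30% lower in that comparison. The median log2 difference of the members was 3.64, against -0.05 over all genes. With the cTEC libraries alone 14 of the 35 members passed the filter, and the other 21 passed through their mTEC counts, so these counts and medians are a description. Muc6, Wap and Scgb3a1 were not called. Summed over all members, CPM was 1659 ± 101 in control mTEC and 227 ± 24.6 in control cTEC (SD, n = 3). In Cre cells the split was also 31 higher and 1 lower, where 25.1% and 24.5% of all genes were called, with a median of 3.78. Fewer cells of an antigen-expressing type and less RNA per cell cannot be told apart in these bulk libraries.

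**Figure D1:**
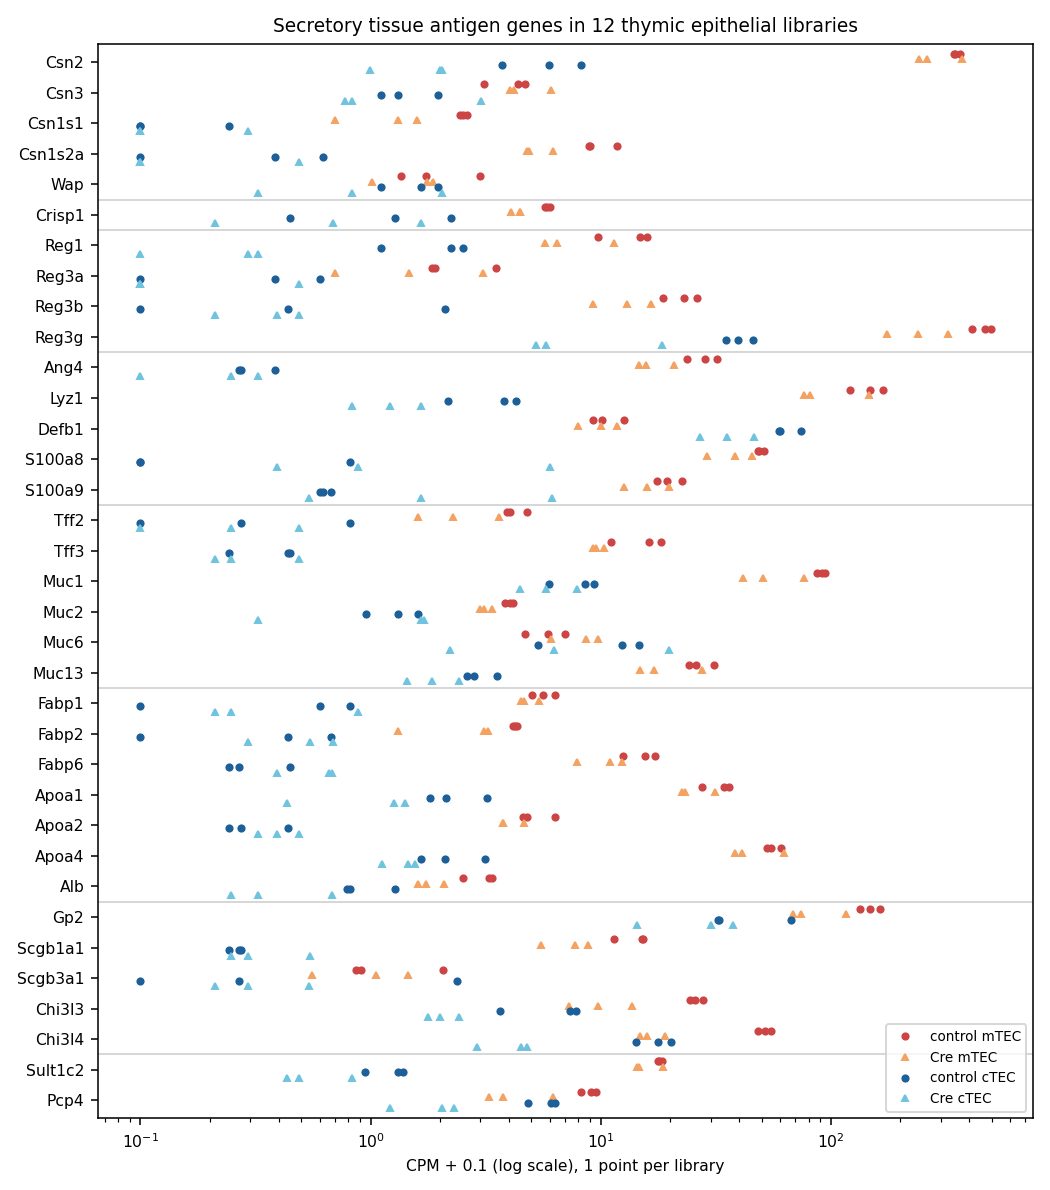
Level of each of the 35 tested members in every library, as CPM + 0.1 on a log axis; circles are control and triangles Cre libraries, and grey lines separate role groups. Red mTEC points lie right of blue cTEC points for nearly every gene, Defb1 runs the other way, and Muc6 and Wap overlap.

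Among milk proteins, Csn2 encodes beta-casein and was the most abundant. Csn2 was at 364, 341 and 346 CPM in control mTEC and at 3.63, 8.07 and 5.85 in control cTEC, a log2 difference of 5.90 (SE 0.22, edgeR adjusted p = 8.97e-14). No library of one type came near the other. Csn1s2a, alpha-S2-casein, was at 8.89, 11.7 and 8.75 CPM in mTEC and at most 0.52 in cTEC (log2 difference 5.11, SE 0.52). With only 5 counts over the control cTEC libraries, its call is a description. Csn1s1, alpha-S1-casein, had 68 counts over the control mTEC libraries and 1 over the control cTEC libraries, a ratio relative to library size of 45.6 with a 95% counting interval of 7.92 to 1828. Csn3 (kappa-casein) was higher by 1.52 on the log2 scale, whereas whey acidic protein, Wap, was at 1.26 to 2.87 CPM in mTEC and 1.01 to 1.86 in cTEC, with overlap. The 4 caseins lie in 1 cluster on chromosome 5 with 4 other protein-coding genes between them.

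The Reg lectins are small secreted C-type lectins of intestine and pancreas, and Reg3g and Reg3b bind bacteria. Reg3g was at 409, 495 and 468 CPM in control mTEC and at 34.8, 45.6 and 39.3 in control cTEC (log2 difference 3.52, SE 0.27, edgeR adjusted p = 1.88e-09). Reg3b was at 18.6, 22.9 and 26.0 in mTEC and 0, 0.34 and 2.00 in cTEC (4.70, SE 0.44), and Reg3a at 1.80, 1.75 and 3.40 against 0, 0.50 and 0.29 (3.02, SE 0.80). With only 5 counts over the control cTEC libraries, the Reg3a call is a description. The 6 Reg genes follow each other on chromosome 6 with 0 other protein-coding genes between them, yet they covered a wide range: over the 3 control mTEC libraries Reg3g had 12654 counts, Reg2 18 and Reg3d 7. Reg3g and Reg3b are 75.9% identical in coding sequence.

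Of the antimicrobial proteins, Ang4, an angiogenin of Paneth cells, was at 23.7, 28.3 and 31.8 CPM in control mTEC and at 0.17, 0.17 and 0.29 in control cTEC (log2 difference 6.92, SE 0.34). Lyz1, the Paneth cell lysozyme, was at 121, 147 and 168 against 2.07, 4.2 and 3.71 (5.42, SE 0.28). S100a8, a calprotectin subunit, was at 48.2, 48.7 and 51.2 against 0, 0 and 0.71 (7.45, SE 0.62). Control mTEC and control cTEC did not overlap for these 3 genes. Ang4 and S100a8 had only 4 and 5 counts over the control cTEC libraries, so their values are a description. Defb1, a beta-defensin made constitutively by epithelia, showed the opposite order, at 9.16, 12.6 and 10.1 CPM in control mTEC and 74.2, 59.5 and 59.8 in control cTEC (log2 difference -2.61, SE 0.19, edgeR adjusted p = 6.61e-10).

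Tff3, the goblet cell trefoil peptide, was at 11.0, 18.2 and 16.1 CPM in control mTEC and at most 0.35 in control cTEC (5.72, SE 0.38). Tff2, its stomach relative, was higher by 3.64 on the log2 scale (SE 0.64) and the membrane mucin Muc1 by 3.52 (SE 0.22). Muc6, a gel-forming mucin of stomach glands, was at 4.58, 5.80 and 6.93 CPM in mTEC and 14.5, 5.21 and 12.3 in cTEC, overlapping and not called (adjusted p = 0.124). Fabp6, the ileal bile acid-binding protein, was at 12.4, 15.5 and 17.1 against 0.35, 0.17 and 0.14 (6.02, SE 0.39). Each of the 7 absorptive or liver members was called higher in mTEC, where 29.3% of all genes were. Fabp1, Fabp2, Fabp6 and Apoa2 had only 8, 6, 4 and 4 counts over the control cTEC libraries, so their calls are a description. The same holds for Tff3 and Tff2, with 5 and 6 counts there. Apoa4 and Apoa2, apolipoproteins of intestine and liver, were higher by 4.66 and 4.48 on the log2 scale.

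Scgb1a1, the club cell secretoglobin of the airway, had 380 counts over the control mTEC libraries and 3 over the control cTEC libraries, a ratio of 85.0 (95% counting interval 28.9 to 414). The other airway and M cell members were less separate: Gp2, the M cell receptor for type 1 fimbriae, was at 133, 148 and 163 CPM in mTEC and 32.2, 32.5 and 66.9 in cTEC (1.74, SE 0.28). On the log2 scale Chi3l3 was higher by 2.06 (SE 0.24) and Chi3l4 by 1.58 (SE 0.15). Pcp4, a calmodulin regulator best known from Purkinje cells, was higher by 0.65 (SE 0.27, edgeR adjusted p = 0.0455) and lost the call in 5 alternatives, each without 1 of the libraries 1, 2, 3, 8 or 9. Sult1c2, a cytosolic sulfotransferase, was higher by 3.98 (SE 0.25), and Crisp1, an epididymal secretory protein, by 2.18 (SE 0.48).

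Per length of the longest coding transcript, Reg3g stood highest in control mTEC at 593 ± 57.2 CPM per kb, followed by Csn2 at 264 ± 8.88, Lyz1 at 115 ± 18.7, S100a8 at 102 ± 3.32 and Gp2 at 74.3 ± 7.54 (SD, n = 3). Lyz1 and S100a8 overlapped within their libraries, and so did Muc1, Ang4 and S100a9 at 40.5, 39.4 and 38.1. The lowest tested members on this scale were Muc6 at 0.659 and Alb, serum albumin, at 1.45. In control cTEC the order changed: Defb1 led at 74.0 CPM per kb, ahead of Reg3g at 51.7 and Gp2 at 22.0.

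**Figure D2:**
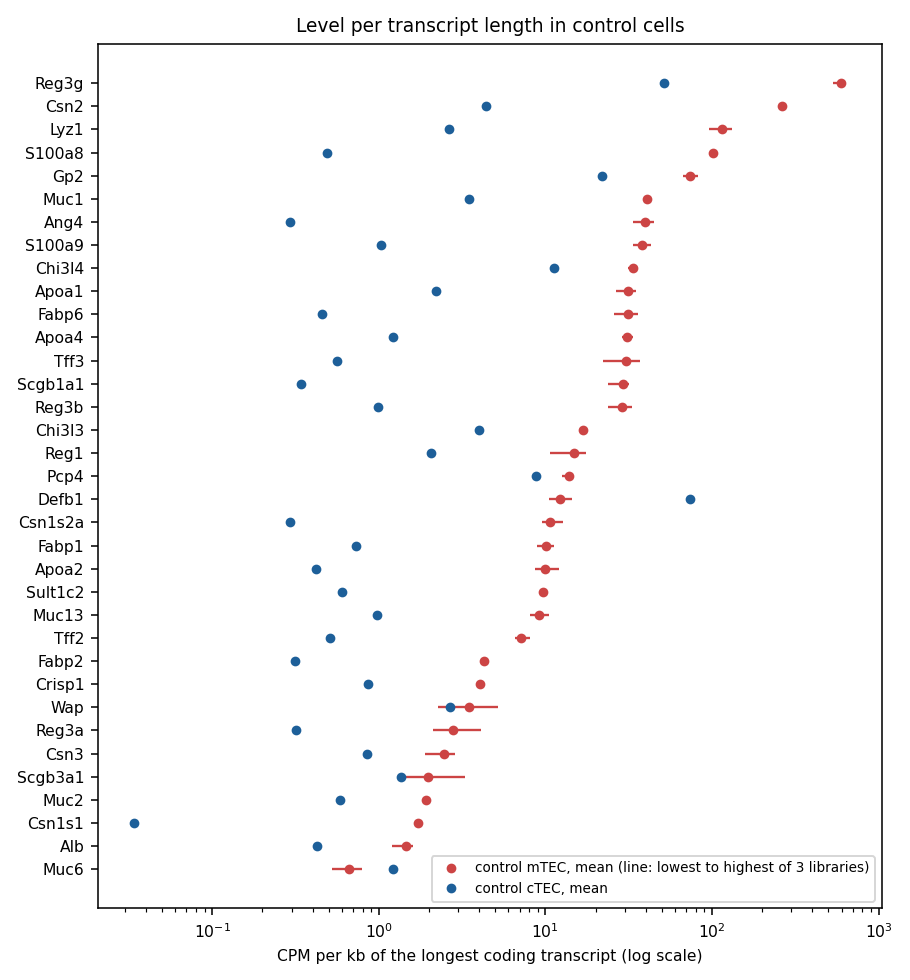
CPM per kb of the longest coding transcript on a log axis, for each tested member in control mTEC (red, mean with a line from the lowest to the highest library) and control cTEC (blue, mean). Reg3g leads in mTEC at 593 and Defb1 in cTEC at 74.0; their order in the other cell type is different.

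The control cTEC level, as a percent of the control mTEC level, had a median of 7.31 over the 35 members and was under 5 for 13. Aire itself stood at 1.19% and Fezf2 at 4.57%. S100a8 was lowest at 0.482%, followed by Ang4 (0.748%) and Scgb1a1 (1.16%), which had only 5, 4 and 3 counts over the control cTEC libraries. Csn2 stood at 1.67% and Lyz1 at 2.30%. Reg3g stood at 8.72%, Chi3l3 at 23.8%, Gp2 at 29.6%, Chi3l4 at 33.5% and Pcp4 at 63.9%. The percentages of the different members in the same cTEC libraries thus ranged widely. The part that mTEC RNA in the cTEC sort has in these values was not tested.

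In mTEC, no member rose and 5 fell in Cre libraries: Chi3l4, Chi3l3, Scgb1a1, Ang4 and Muc1. Of all genes tested, 0.585% were called higher and 1.49% lower. DESeq2 and limma voom also called 0 members higher, and at an unadjusted p under 0.05 edgeR gave 16 lower and 0 higher. The share of all genes at that unadjusted threshold was not counted, here or below. The 30 members not called ran from -1.12 (Csn1s1) to 0.49 (Muc6), and 33 of all 35 log2 differences were negative, with a median of -0.51 against 0.01 over all genes. For 19 members every Cre library was below every control library, where 12.8% of all genes were, and for 0 members was every Cre library above, where 11.6% of all genes were. The members' summed level was 1094 ± 260 CPM in Cre mTEC, against 1659 ± 101 in control. The number called lower was 17 with limma voom (6.36% of all genes in that fit), 12 with no filter on low counts (2.15%) and 10 with only the mTEC libraries in the fit (4.22%). It was 4 with the robust edgeR fit (1.53%) and with a filter of 5 CPM (2.26%). The mTEC-defining list summed to 7105 to 7382 CPM in control and 6007 to 6925 in Cre mTEC, with 0 of 10 genes called by edgeR and 4 lower at an unadjusted p under 0.05. Its part in these results was not tested.

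Chi3l4, a chitinase-like protein of airway epithelium, had the largest change. Its level was 55.1, 48.1 and 51.5 CPM in control mTEC and 18.9, 15.8 and 14.7 in Cre mTEC, a fall of 3.14-fold (log2 -1.65, SE 0.15, edgeR adjusted p = 5.86e-06). Chi3l3, also called Ym1 and abundant in alternatively activated macrophages, went from 24.3, 27.8 and 25.6 to 13.5, 9.64 and 7.21 CPM (log2 -1.36, SE 0.23, adjusted p = 0.00441). Groups were separate for both genes, and both calls held in each of the 13 alternatives. The summed level of macrophage and dendritic cell genes was 393 to 483 CPM in control and 312 to 451 in Cre mTEC, overlapping, and Lyz2, at a mean of 249 and 214 CPM, made up most of it. Of its 15 tested genes 1 was called lower, and at an unadjusted p under 0.05 edgeR gave 4 lower and 0 higher. The gene called lower was Mrc1, a macrophage mannose receptor, from 25.9, 22.3 and 25.4 to 11.7, 11.1 and 15.4 CPM with no overlap (log2 -0.94, SE 0.17, edgeR adjusted p = 0.0073). Itgam, a myeloid integrin, was at a mean of 11.4 and 5.41 CPM, without overlap and not called (adjusted p = 0.115). The median log2 difference of the 15 tested genes was -0.26. Emr1 was at a mean of 11.4 CPM in control and 8.61 in Cre mTEC, Cd14 at 19.1 and 14.2, and Cd68 at 7.15 and 5.95. C1qa was nearly level, at a mean of 5.36 and 5.29 CPM, while Mertk was higher at 2.10 and 3.46, and Itgax at 0.79 and 1.14. The part of those cells in the Chi3l3 and Chi3l4 values was not tested.

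Scgb1a1 was at 11.3, 15.2 and 15.0 CPM in control mTEC and 8.67, 5.42 and 7.62 in Cre mTEC (log2 -0.93, SE 0.23, edgeR adjusted p = 0.0415). Ang4 was at 23.7, 28.3 and 31.8 against 15.7, 14.6 and 20.7 (log2 -0.71, SE 0.18, adjusted p = 0.0389). Muc1, a membrane mucin of many glands, was at 91.1, 87.1 and 94.5 against 41.2, 50.6 and 76.4 (log2 -0.69, SE 0.18, adjusted p = 0.0460). None of the 3 genes overlapped between groups, yet each call was lost when single libraries were left out: without any of libraries 1 to 6 for Scgb1a1 (adjusted p up to 0.267), and without any of libraries 1 to 5 for Ang4 (up to 0.253) and Muc1 (up to 0.248). The Muc1 call was also lost with the robust edgeR fit (adjusted p = 0.0621) and the filter of 5 CPM (0.0575).

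Several other members, Reg3g among them, were lower without being called. Reg3g was at 409, 495 and 468 CPM in control mTEC and 239, 175 and 321 in Cre mTEC, with no overlap (log2 -0.90, SE 0.24, edgeR adjusted p = 0.0603). Pcp4 was at 8.98, 9.41 and 8.10 against 3.65, 3.16 and 6.12 (log2 -1.02, SE 0.27, adjusted p = 0.0574). Gp2 was at 133, 148 and 163 against 68.2, 74.4 and 116 (log2 -0.78, SE 0.26, adjusted p = 0.143). In each of these genes Cre library 6 was the highest of its group. Csn2 was at 364, 341 and 346 CPM against 241, 262 and 371, so that library 6 lay above all controls (log2 -0.27, 95% interval -0.60 to 0.07). Muc6, Csn3, Fabp1 and Apoa4 likewise overlapped between genotypes.

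By role, the 4 tested Reg lectins were all on the lower side in Cre mTEC, with a median log2 difference of -0.79, 0 called by edgeR or DESeq2, 3 by limma voom and 3 at an unadjusted p under 0.05. Reg3b was at 18.6, 22.9 and 26.0 CPM in control and 16.4, 9.19 and 12.9 in Cre mTEC, without overlap. Reg1 was at 9.61, 15.9 and 14.8 against 5.63, 6.32 and 11.3, with overlap. The 7 absorptive or liver members had a median of -0.38, with 0 called by edgeR or DESeq2 and 1 by limma voom. Among them Apoa4 was at 52.5, 54.7 and 60.6 CPM against 38.3, 40.8 and 62.3, and Fabp6 at 12.4, 15.5 and 17.1 against 7.76, 10.8 and 12.2. Lyz1 was at 121, 147 and 168 CPM against 76.5, 81.2 and 146, again with library 6 among the controls. The milk proteins had a median of -0.37, with Csn1s2a at 8.89, 11.7 and 8.75 CPM against 6.08, 4.67 and 4.76, and Csn3 at 4.58, 4.27 and 3.01 against 4.11, 3.92 and 5.98.

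**Figure D3:**
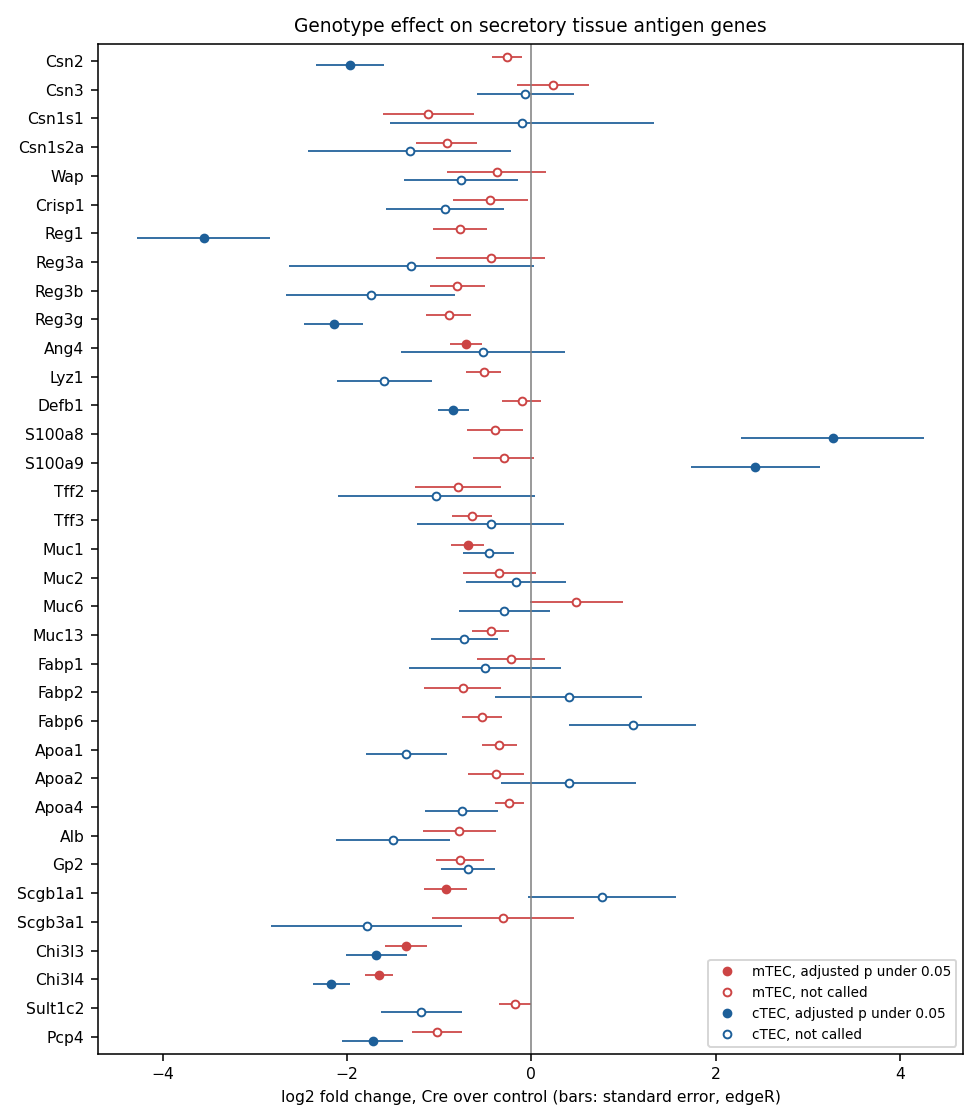
Log2 fold change of Cre over control for the 35 tested members in mTEC (red) and cTEC (blue), with the edgeR standard error as bars; filled points have an adjusted p under 0.05. Most points lie left of 0 in both cell types, Chi3l3 and Chi3l4 are filled in both, and S100a8 and S100a9 are filled on the right in cTEC.

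In cTEC, where only 14 of the 35 tested members had at least 30 counts over the control libraries, 7 members fell and 2 rose in Cre libraries. Chi3l4, Reg3g, Csn2, Pcp4, Chi3l3, Reg1 and Defb1 fell, and S100a9 and S100a8 rose. Of these, Reg1, S100a8 and S100a9 did not pass the filter with the cTEC libraries alone. Of all genes tested, 3.38% were called lower and 5.62% higher. The 26 members not called ran from -1.79 (Scgb3a1) to 1.10 (Fabp6). The members' summed level was 117 ± 25.1 CPM, against 227 ± 24.6 in control cTEC.

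Chi3l4 was at 14.2, 20.0 and 17.6 CPM in the control cTEC and 2.79, 4.66 and 4.39 in Cre cTEC, 4.50-fold lower (log2 -2.17, SE 0.20, edgeR adjusted p = 1.84e-06). Chi3l3 was at 7.26, 3.53 and 7.71 against 1.68, 2.33 and 1.90 (log2 -1.68, SE 0.33, adjusted p = 0.00216). The pair were thus called lower in both cell types, and a test of the difference between cell types called neither (Chi3l4 difference -0.52, 95% interval -1.06 to 0.02; Chi3l3 difference -0.32, interval -1.15 to 0.51).

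Reg3g was at 34.8, 45.6 and 39.3 CPM in the control cTEC and 5.70, 18.3 and 5.12 in Cre cTEC (log2 -2.14, SE 0.32, edgeR adjusted p = 0.000244). Every Cre library was below the controls, with library 11 the highest of the 3. Reg1, a pancreatic Reg protein, had 35 counts over the control cTEC libraries and 3 over the Cre cTEC libraries, 13.0 times fewer relative to library size (95% counting interval 4.11 to 66.2, edgeR adjusted p = 0.00295). Reg1 did not pass the filter with the cTEC libraries alone, so it was tested in cTEC through its mTEC counts. Reg3b and Reg3a had at most 16 counts over the control cTEC libraries and were not called.

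Csn2 was at 3.63, 8.07 and 5.85 CPM in the control cTEC and 0.89, 1.94 and 1.90 in Cre cTEC (log2 -1.96, SE 0.37, edgeR adjusted p = 0.00161). Pcp4 was at 6.22, 4.71 and 5.99 against 1.12, 1.94 and 2.19 (log2 -1.72, SE 0.33, adjusted p = 0.00185). Both were separate between genotypes. Defb1, the only member called higher in cTEC than in mTEC, was at 74.2, 59.5 and 59.8 CPM in control and 26.8, 35.2 and 46.1 in Cre cTEC (log2 -0.85, SE 0.17, adjusted p = 0.00306). In mTEC Defb1 overlapped between genotypes, at 9.16 to 12.6 CPM in control and 7.83 to 11.7 in Cre. The difference between the Defb1 effects was -0.74 (95% interval -1.32 to -0.16) and was not called (adjusted p = 0.158).

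The 2 members that rose, the calprotectin subunits, did so mainly in 1 library. S100a8 was at 0, 0 and 0.71 CPM in the control cTEC and 5.92, 0.78 and 0.29 in Cre libraries 10, 11 and 12 (log2 3.27, SE 0.99, edgeR adjusted p = 0.0454). S100a9 was at 0.52, 0.50 and 0.57 against 6.04, 1.55 and 0.44 (log2 2.43, SE 0.70, adjusted p = 0.0347). Both overlapped with controls through library 12. Without library 10 the log2 difference of S100a8 was 0.87 (adjusted p = 0.735) and that of S100a9 was 0.78 (adjusted p = 0.593). The S100a8 call was also lost without control library 7 or 8, and the S100a9 call without control library 7, 8 or 9. Neither gene passed the filter with the cTEC libraries alone, so both were tested in cTEC through their mTEC counts. Library 10 also had the highest level of the granule genes Ngp (8.72 CPM, against at most 1.01 in the other cTEC libraries) and Elane (4.36 against at most 0.67), while Ly6g, a neutrophil surface marker, was at 0.11. Other neutrophil genes went both ways. Mpo was highest in library 10 (4.58 against at most 3.70). Prtn3 was at 0.89 there and 1.68 in library 8, and Retnlg at 1.12 there and 2.91 in library 11. Cxcr2, at 0.34, was lowest in library 10. The neutrophil list summed to 170 to 209 CPM in the control cTEC and to 500, 338 and 418 in Cre libraries 10 to 12, of which Mmp9 alone was 445, 284 and 380. Its 11 tested genes held 1 called higher, Mmp9, and 1 lower, Hdc. Erythroid genes summed to 76.6 CPM in library 10, 30.5 in library 11 and 8.0 to 13.8 in the other cTEC libraries. The part of neutrophil or blood cell RNA in the S100a8 and S100a9 values was not tested.

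**Figure D4:**
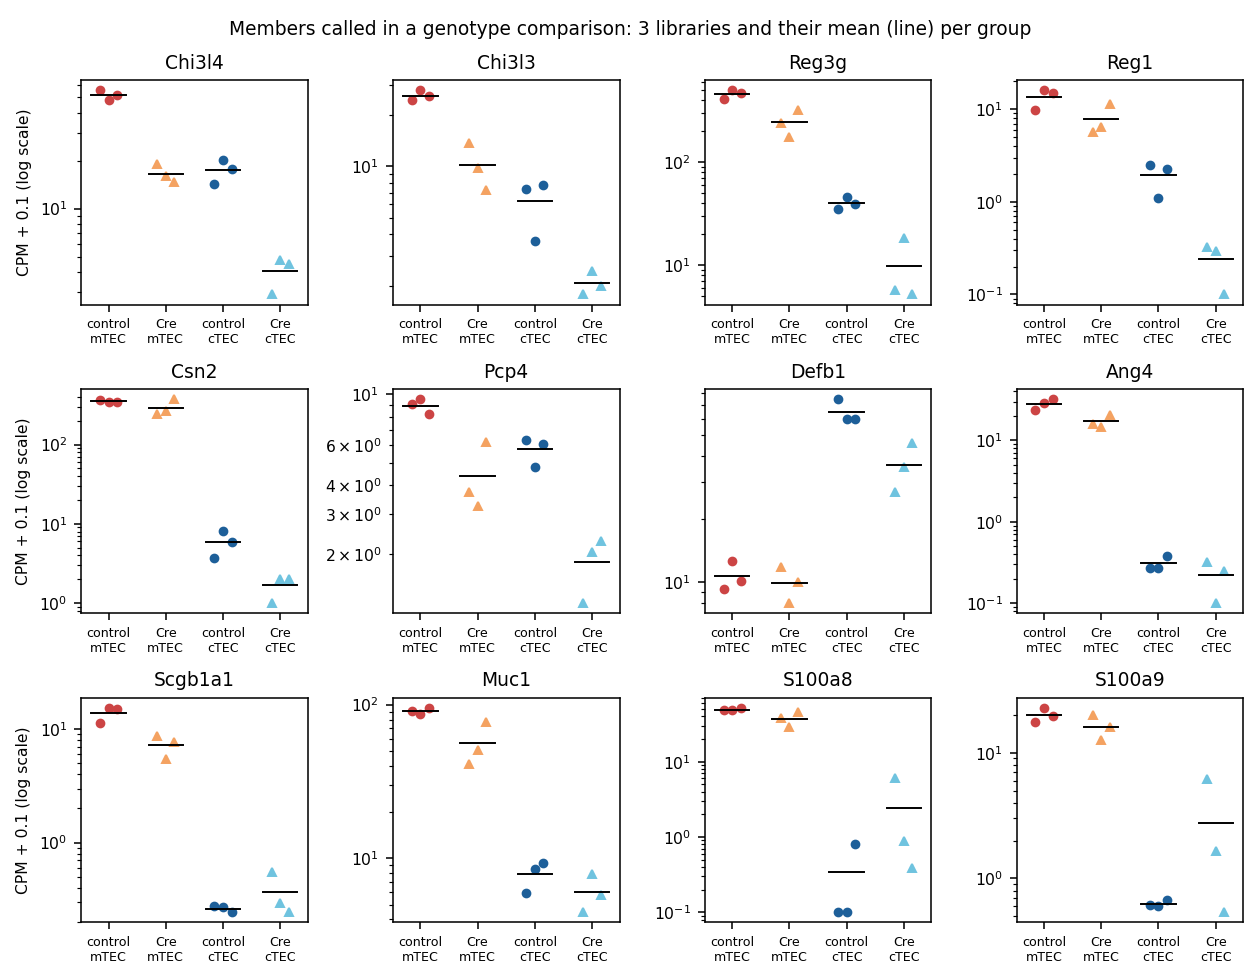
CPM + 0.1 on log axes for the 12 members called in a genotype comparison, with 3 libraries per group and their mean as a black line. Chi3l3 and Chi3l4 are separate between genotypes in both cell types, Csn2 and Reg1 have their larger step in cTEC, and in S100a8 and S100a9 1 Cre cTEC point at about 6 stands above the rest.

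Just outside the threshold in cTEC were Apoa1, the main protein of high-density lipoprotein, and Lyz1. Apoa1 was at 3.11, 2.02 and 1.71 CPM in the control cTEC and 0.34, 1.17 and 1.32 in Cre cTEC (log2 -1.36, SE 0.44, edgeR adjusted p = 0.0604). Lyz1 was at 2.07, 4.2 and 3.71 against 1.12, 1.55 and 0.73 (log2 -1.59, SE 0.52, adjusted p = 0.0617). Neither overlapped between groups. Fabp6 and Scgb1a1 had 10 and 6 counts over the 3 Cre cTEC libraries, and their differences had intervals of -0.34 to 2.54 and -0.91 to 2.44. Trefoil factors and mucins gave 0 calls of 6 tested with edgeR, DESeq2 and limma voom, and 0 at an unadjusted p under 0.05. The 7 absorptive or liver members gave 0 with edgeR and voom, 1 lower with DESeq2 and 2 lower at an unadjusted p under 0.05.

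The genes that define the cell sorts moved between the cTEC groups too. The mTEC-defining list summed to 2643, 2341 and 2539 CPM in the control cTEC and to 1524, 1361 and 1307 in Cre cTEC, with no overlap, and of its 10 tested genes 2 were called lower and 3 higher. Of the 9 tested cTEC-defining genes, 6 were called higher. Aire was at 10.0, 9.92 and 10.8 CPM in the control cTEC and 2.91, 9.52 and 4.82 in Cre cTEC (log2 -0.95, SE 0.33, adjusted p = 0.0848), while Fezf2 rose from 22.6, 24.4 and 24.6 to 51.2, 38.9 and 30.3 (log2 0.76, SE 0.16, edgeR adjusted p = 0.00461). The part of a changed share of mTEC RNA in the cTEC results was not tested. As a percent of the mTEC level of the same genotype, Csn2 in cTEC was 1.67 in control and 0.542 in Cre, Reg3g 8.72 and 3.96, Chi3l4 33.5 and 24.0, and Muc1 8.64 and 10.6.

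Csn2 was the only member whose genotype effect was called different between cell types, where 1.08% of all genes were called in that direction and 2.92% in the other. The log2 effect in cTEC minus that in mTEC was -1.70 (95% interval -2.55 to -0.85, edgeR adjusted p = 0.0213). The call was lost with limma voom and without library 8, 9 or 10, and the difference ranged from -1.93 to -1.34 over all alternatives. Next in order and not called were S100a8 (difference 3.66, adjusted p = 0.0527), S100a9 (2.73, adjusted p = 0.0566), Reg1 (-2.78, adjusted p = 0.0636) and Reg3g (-1.24, adjusted p = 0.0985). For the other members the 2 cell types were not shown to differ.

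The 3 Cre libraries of a cell type differed among themselves. Over the 35 members with at least 30 counts in control mTEC, the median level relative to the control mean was 0.626 in library 4, 0.610 in library 5 and 0.808 in library 6, while the median over all genes was between 0.988 and 0.992. Library 6 was the highest of the 3 for 22 of the 35 members, and for 35.1% of all genes. Library 6 was also the highest for Aire, with 490, 566 and 867 CPM in libraries 4 to 6 against 795, 862 and 935 in control mTEC (log2 -0.43, SE 0.20, edgeR adjusted p = 0.322). Fezf2 was at 480, 408 and 477 against 499, 502 and 567 (adjusted p = 0.554). Without library 6, 2.81% of all genes and 10 members were called lower in mTEC: Chi3l4, Muc1, Lyz1, Chi3l3, Pcp4, Ang4, Reg3g, Muc13, Gp2 and Reg1. Leaving out any other mTEC library left 2, Chi3l3 and Chi3l4, with 0.342% to 0.768% of all genes called lower.

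In cTEC, 14 members had at least 30 counts in control libraries, and their median relative level was 0.235 in library 10, 0.489 in library 11 and 0.358 in library 12, with all-gene medians of 1.02, 0.941 and 0.997. Library 11, which had the fewest counts, was the highest of the 3 for 8 of the 14. Aire was highest in library 11 as well, at 0.927 of the control mean, against 0.283 in library 10 and 0.470 in library 12. The part of Aire levels in these values was not tested.

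**Figure D5:**
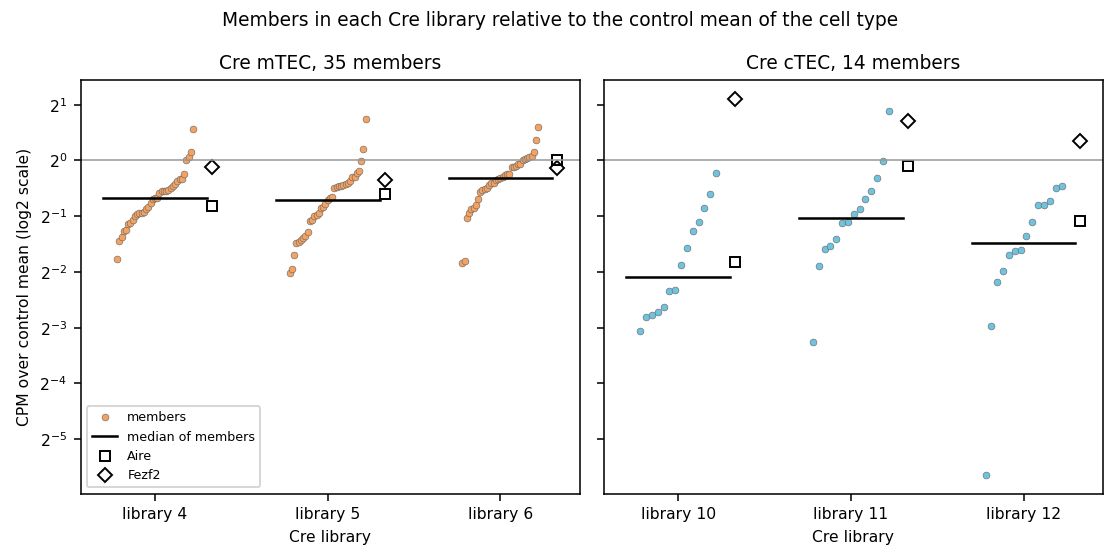
CPM in each Cre library relative to the control mean of its cell type, on a log2 axis, for members with at least 30 control counts (circles; black line, their median), with Aire (squares) and Fezf2 (diamonds). Reg1 in library 12 was 0 and is drawn at 0.02. Medians lie below 1 in all 6 libraries, at 0.610 to 0.808 in mTEC and 0.235 to 0.489 in cTEC.

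Other genes of the same kind, from a further list of 39 tested secretory and absorptive genes, gave 0 higher and 7 lower calls in mTEC and 3 higher and 2 lower in cTEC. Of these genes 17.9% were called lower in mTEC, against 1.49% of all genes, while in cTEC 7.69% were higher and 5.13% lower, against 5.62% and 3.38%. In mTEC the airway and stomach mucin Muc5ac (log2 -1.22, SE 0.24), the immunoglobulin transporter Pigr (-0.83, SE 0.15), lipocalin Lcn2 (24.2 CPM in control and 12.1 in Cre) and Retnla (-1.21, SE 0.27) were among those that fell. Fcgbp, a mucin-like goblet cell protein, fell by 0.83 in mTEC and rose by 0.95 in cTEC (SE 0.21 in both). Bpifa1, a secreted protein of upper airway epithelium, fell by 1.38 in cTEC and by 0.83 in mTEC. Of 10 other tested genes of M cells, the intestinal cells known for Gp2, 0 were called by edgeR in mTEC and 1 was lower at an unadjusted p under 0.05, while in cTEC Tnfrsf11a (RANK) rose by 0.83 and Clu (clusterin) fell by 0.78. These 2 calls are 10% of the M cell genes in each direction, against 5.62% of all genes higher and 3.38% lower. Of 21 tested regulators of tissue antigens, 1 was called in each cell type: Fezf2 higher in cTEC, and Grhl1, an epithelial transcription factor, lower by 0.62 in mTEC. Each call is 4.76% of that list, against 5.62% of all genes called higher in cTEC and 1.49% lower in mTEC. At an unadjusted p under 0.05 edgeR gave 8 of them lower and 0 higher in mTEC, and 4 lower and 1 higher in cTEC.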

How the data were processed

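RNA of sorted cTEC and mTEC was made into low-input libraries with a kit that does not mark strand, per the labels' protocols. The deposited table holds unnormalized read counts by gene symbol for 12 libraries. The submitters' processing notes name STAR, HTSeq and edgeR with build mm9. No source used here gives tool versions, annotation or strand setting. Every column matched 1 library.

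From the deposited counts, genes were tested with edgeR 4.0.16 in R 4.3.3 (quasi-likelihood, two-sided, TMM scaling, filterByExpr by group, 12 libraries in 1 fit of 4 groups), adjusted by Benjamini-Hochberg over 17268 genes at 0.05, and checked on simulated data. CPM use TMM-scaled totals. Between replicates the correlation of log CPM ran from 0.971 to 0.991, and no library was a copy of another. Low-count ratios have 95% counting intervals, which cover counting error only. GENCODE M21 gave transcript lengths and identities, and RefSeq (GRCm38.p6) promoters. Exons of Apoa4, Muc13 and Pcp4 overlap other genes, so their reads may be shared.

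Alternatives were DESeq2 size factors, DESeq2 1.42.0, limma 3.58.1 voom, a robust fit, other count filters, a fit of the 6 compared libraries alone, and leaving out each library. Named were members called in a genotype comparison or the difference, and up to 3 per role with the largest called cell type difference; up to 4 genes per further list, by p. Other members were named after their values were seen. Members and lists were chosen with earlier results of these data known.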

Additional observations from a re-analysis of the deposited data

Results flagged for a closer look

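The genotype effect on Csn2 differed between the cell types by a test of the difference itself: the log2 effect in cTEC minus that in mTEC was -1.70 (SE 0.41, edgeR adjusted p = 0.0213), and all 3 Cre cTEC libraries were below all 3 control cTEC libraries. Over the alternatives the difference ranged from -1.93 to -1.34, with an adjusted p of up to 0.110.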

How the results depend on the processing

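Of 1062 alternative values, 990 kept their direction and side of the threshold, 40 lost a call, 29 gained one and 3 reversed. The reversed values were Ang4, whose difference between cell types was -0.48 without Cre cTEC library 10, and Defb1 in mTEC, at 0.032 without control library 2 and 0.025 without Cre library 5; none was called. With 1 library left out they ranged from -0.48 to 0.58 and from -0.29 to 0.032. Members called lower in mTEC numbered 17 with limma voom (6.36% of all genes), 12 with no filter (2.15%) and 10 with only the 6 libraries compared (4.22%). With 1 library left out they numbered 2 to 10 (0.342% to 2.81% of all genes). In cTEC the members called higher numbered 1 with DESeq2 and with the filter of 5 CPM, 0 with voom and the robust fit, and 0 to 2 with 1 library left out. With the 6 libraries compared they numbered 0, but S100a8 and S100a9 did not pass the filter there and were not tested. Over all genes, DESeq2 called 1837 of 17268 in cTEC, 648 of them lower, and the filter of 5 CPM 1845 of 13237, 702 of them lower. Voom called 2193 of 17268, 877 of them lower, and the robust fit 1526, 576 of them lower. With 1 library left out 1018 to 2294 genes were called, with 361 to 858 of them lower. For the difference of effects, members called lower numbered 2 with DESeq2 (1.33% of all genes) and voom (3.4%) and 3 with no filter (0.89%). With 1 library left out they numbered 0 to 3 (0.506% to 3.2% of all genes). Members called higher for the difference numbered 2 with no filter and 0 to 2 with 1 left out. Over all genes, 1140 of 31332 were called for the difference with no filter, 279 of them lower. With 1 left out 371 to 1644 genes were called, with 90 to 562 of them lower. Members lower in control mTEC than cTEC numbered 2 with voom (34.4% of all genes), with no filter (13.1%) and with the 6 libraries compared (32.6%). The cause of these shifts was not tested. The cTEC calls for Chi3l4, Chi3l3, Reg3g, Reg1, Csn2, Pcp4 and Defb1, and the mTEC calls for Chi3l4 and Chi3l3, held in every alternative that tested them; Reg1 did not pass the filter in the fit of the 6 cTEC libraries. No paired analysis was possible because the library numbers 1 to 12 are not shared between groups. With 3 libraries per group and under 10 counts for many members in cTEC, depth limits what could be called there.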
